A study of Mus musculus with 8 samples.

Results

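The cadherin superfamily genes described here are the rows of the per-library expression table whose gene name is a numbered cadherin (Cdh), a numbered protocadherin (Pcdh), a beta-cluster protocadherin (Pcdhb), a gamma-cluster protocadherin (Pcdhga, Pcdhgb or Pcdhgc), Fat1 to Fat4, Dchs1 or Dchs2. The names selected 84 of 48641 rows, with 82 different symbols, because Pcdhga8 and Pcdhgb8 each stand on 2 rows with different identifiers. They comprise 22 cadherins, 11 non-clustered protocadherins, 22 beta-cluster and 23 gamma-cluster protocadherins, and 6 Fat and Dachsous genes. The rule reads gene names only.

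The cells were mouse embryonic fibroblasts (MEFs), which are primary fibroblasts cultured from embryos. The 4 YAP libraries came from MEFs given lentivirus for wild-type YAP fused to a fluorescent protein, GFP in replicates 1 and 2 and mCherry in replicates 3 and 4. The 4 EV libraries came from MEFs given an empty vector that encodes the fluorescent protein alone, again GFP in replicates 1 and 2 and mCherry in replicates 3 and 4. All 8 cultures received doxycycline and were sorted on the reporter, and polyadenylated RNA was sequenced with a stranded kit. The labels give no mouse strain, embryo number or passage and do not tell whether each replicate was its own culture, so p-values reflect the spread of these 8 libraries alone, and that spread may be technical.

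Cadherins are calcium-dependent adhesion molecules. Classical cadherins hold neighbouring cells together through their extracellular repeats and bind catenins, which link them to actin, with their cytoplasmic tails. Protocadherins make weaker contacts and sort cells, and the clustered ones give neurons their surface identity. Fat4 and Dchs1 form a receptor and ligand pair between cells that orients cells in tissues, and their fly counterparts act upstream of the Hippo pathway, which restrains the co-activator YAP. Mesenchymal cells are known for Cdh2 and Cdh11, whereas epithelia carry Cdh1 and endothelia Cdh5.

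Levels are FPKM (fragments per kilobase of transcript, scaled to library size), a unit per length, so that levels of different genes can be compared roughly. FPKM sums ranged from 733695.5 to 1018955.7 per library. Steps in the lowest values gave depths between 0.557 and 1.11 relative to EV replicate 1, and the absolute depth is unknown. Yap1 averaged 82.1 FPKM in YAP libraries and 90.6 FPKM in EV libraries (limma adjusted p = 0.259), so the transcript does not check the labels. Its targets Cyr61, Ctgf and Ankrd1 were higher in YAP libraries, by 0.88, 0.87 and 1.09 on the log2 scale (limma adjusted p = 0.00273, 0.0122 and 0.0170). All 12 fibroblast markers listed for the check were at or above 1 FPKM on average, and 2 of them, Lum and Pdgfra, fell in YAP libraries. Of 13 epithelial markers 3 were tested and 1 of these, Krt7, rose, while Epcam was listed at 0 in all 8 libraries. Of 11 tested macrophage markers 2 fell (C1qa and C1qc), and of 2 tested endothelial markers 1 fell (Erg). Of all tested genes 0.934% rose and 0.821% fell. At an unadjusted p under 0.05, 7 of the 12 fibroblast markers were lower and 1 higher (list median log2 difference -0.25). The shares over all tested genes were 7.12% lower and 7.39% higher. At that threshold 2 of the 3 tested epithelial markers were higher and 0 lower, and 4 of the 11 macrophage markers were lower and 0 higher. Of 5 tested chondrocyte and bone markers 3 were lower and 0 higher. The summed level of the macrophage list was 177 to 391 FPKM in YAP libraries and 307 to 437 FPKM in EV libraries. The part of these markers in the values of the cadherin genes was not tested.

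In the per-library table a mean of at least 1 FPKM over the 8 libraries, taken here as expressed, was reached by 20 of the 84 genes. They were 9 cadherins, 5 non-clustered protocadherins, 2 beta-cluster and 1 gamma-cluster protocadherin, and 3 Fat and Dachsous genes. A further 27 genes lay between 0.1 and 1 FPKM, 12 lay below 0.1 FPKM and 25 were listed at 0 in every library. A 0 in that table does not show that a gene was silent: of 26947 genes at 0 in all 8 libraries, 596 averaged at least 1 FPKM over the arms of the authors' deposited table, and 19 of these were gamma-cluster rows. The 6 highest genes, Pcdhgc3, Cdh11, Fat1, Cdh3, Fat4 and Cdh2, held 77.9% to 79.8% of the summed FPKM of all 84 genes in YAP libraries and 77.1% to 80.4% in EV libraries.

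**Figure D1:**
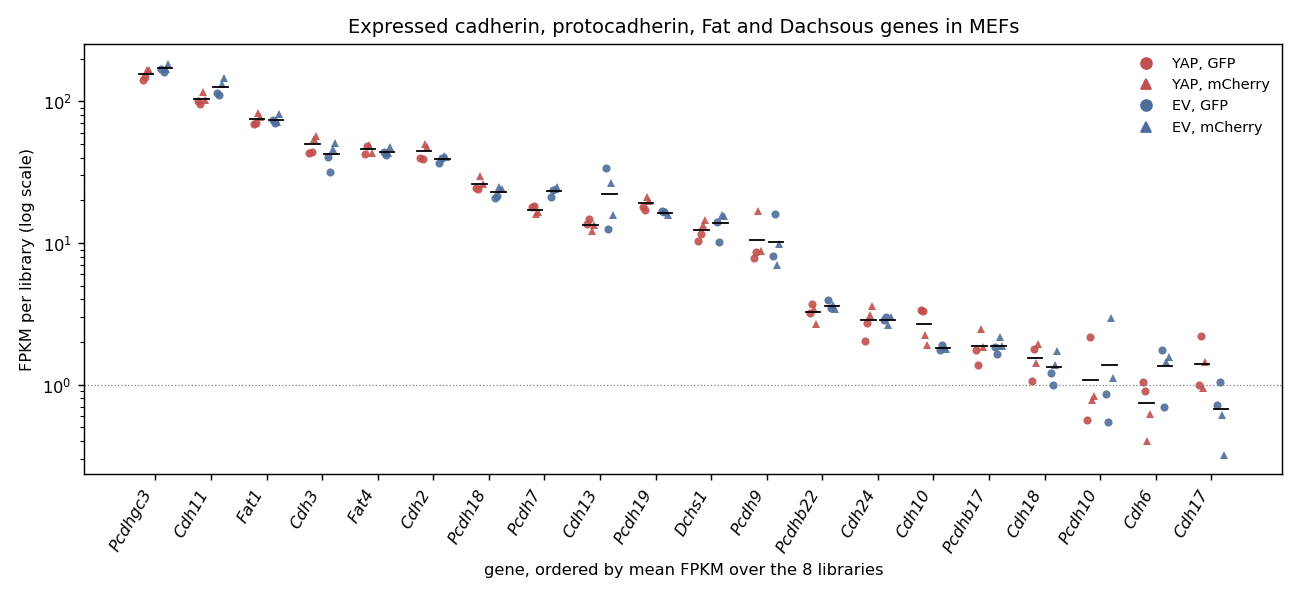
FPKM of the 20 expressed genes in each library on a log scale, with YAP libraries (red) left of EV libraries (blue), circles for GFP, triangles for mCherry and black lines for group means. Levels span Pcdhgc3 at 142 to 185 FPKM down to Cdh17 at 0.320 to 2.20 FPKM, and YAP and EV libraries lie close together for most genes.

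None of the 20 expressed genes passed the test between YAP and EV libraries. In the limma fit over 13276 genes with a term for the reporter, 0 of the 20 had an adjusted p under 0.05 in either direction, against 1.76% of all tested genes (0.934% higher, 0.821% lower). Across the authors' deposited table, 0 of the 31 members tested there were significant, against 5.95% of all genes tested there. Without adjustment 4 of the 20 were higher and 3 lower at p under 0.05, against 14.5% of all tested genes in both directions together (7.39% higher, 7.12% lower). The median log2 difference was -0.0028 over the 20 genes and -0.0038 over all tested genes, and 10 of the 20 lay above 0 and 10 below. The 95% interval of the difference lay within 1 log2 unit on both sides for 16 of the 20. The exceptions were Cdh13, Pcdh10, Cdh6 and Cdh17, which include the 3 lowest genes of the set. In RNA from many sorted cells together, fewer cells that express a gene and less of its RNA per cell cannot be told apart.

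**Figure D2:**
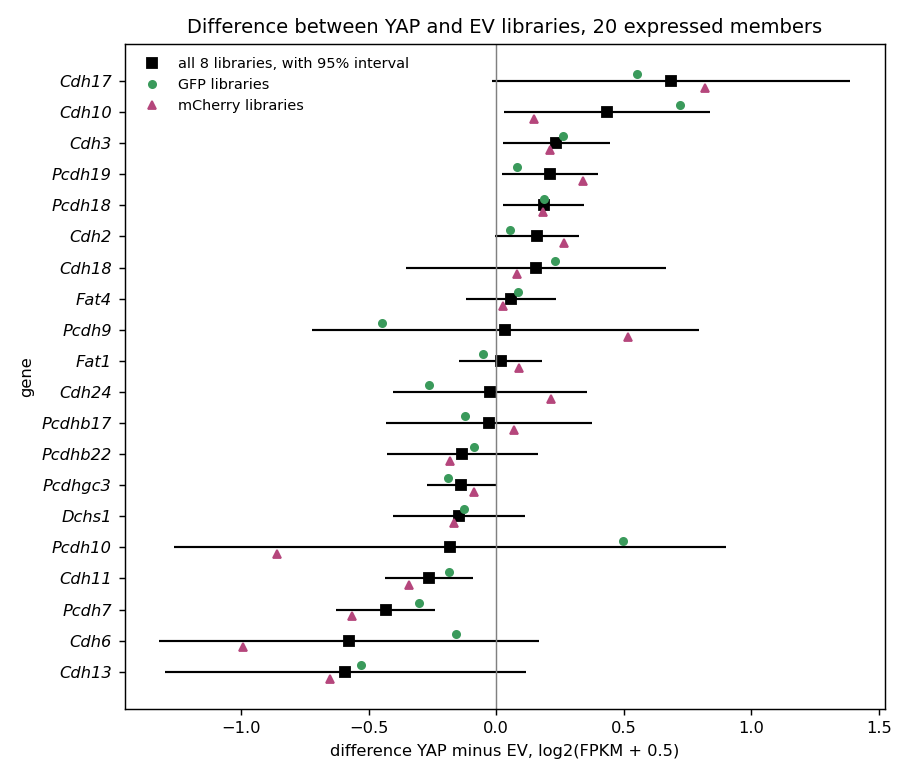
Difference of YAP minus EV libraries in log2(FPKM + 0.5) for the 20 expressed genes, sorted from highest to lowest. Squares with bars are the estimate from all 8 libraries with its 95% interval, circles the difference within GFP and triangles within mCherry libraries. Intervals run from -1.32 at the low end of Cdh6 to 1.39 at the high end of Cdh17, and no gene passed the adjusted threshold.

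Among the classical (type I) cadherins, Cdh3 and Cdh2 were the expressed members. Cdh3 (P-cadherin, chromosome 8, 106510891 to 106557297, plus strand, GRCm38) stood at 43.0, 43.7, 54.5 and 57.3 FPKM in YAP replicates 1 to 4, against 40.7, 32.0, 45.8 and 50.8 FPKM in EV replicates 1 to 4. The groups overlap, and within each vector both mCherry libraries were above both GFP libraries. The log2 difference was 0.24 (95% interval 0.028 to 0.44, limma adjusted p = 0.291), with 0.26 within GFP and 0.21 within mCherry libraries. Cdh2 (N-cadherin, chromosome 18, 16588877 to 16809246, minus strand) stood at 39.8, 39.3, 50.3 and 48.0 FPKM in YAP libraries, against 36.6, 39.7, 41.0 and 40.6 FPKM in EV libraries. The 2 YAP mCherry libraries were the highest of the 8, and the YAP GFP libraries lay among the EV libraries. Cdh2 differed by 0.16 on the log2 scale (95% interval -0.0066 to 0.32, limma adjusted p = 0.364).

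Cdh1 (E-cadherin), the neighbour of Cdh3 on the same strand of chromosome 8 (106603351 to 106670246), was close to 0 whereas Cdh3 was among the highest genes of the set. It stood at 0.240, 0.312, 0.116 and 0.144 FPKM in YAP libraries, against 0, 0.0667, 0 and 0.174 FPKM in EV libraries. With a lower limit of 0.1 FPKM on the mean, its log2 difference was 0.33 (limma adjusted p = 0.546). Beside it, the summed level of the 13 epithelial markers was 22.4 to 50.2 FPKM in YAP libraries and 11.5 to 22.7 FPKM in EV libraries. Most of that sum came from keratins: Krt19 averaged 22.5 FPKM in YAP and 11.2 FPKM in EV libraries, and the part of other cells in the Cdh1 values was not tested. Cdh4 (R-cadherin), another classical cadherin, ranged from 0.0293 to 0.474 FPKM in YAP libraries and from 0.127 to 0.747 FPKM in EV libraries.

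Cdh11, the mesenchymal type II cadherin also called OB-cadherin, was the highest cadherin of the set. It lies on chromosome 8 (102632095 to 102785642, minus strand) and stood at 101, 96.6, 117 and 102 FPKM in YAP libraries, against 115, 110, 132 and 146 FPKM in EV libraries. Within each reporter both YAP libraries were lower than both EV libraries, while across reporters the groups overlap. The log2 difference was -0.26 (95% interval -0.44 to -0.091, limma adjusted p = 0.164), with -0.19 within GFP and -0.34 within mCherry. The authors' deposited table, which gives 1 FPKM value per pooled arm, lists Cdh11 at 144 FPKM in the YAP arm and 172 FPKM in the EV arm (q = 0.385).

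Of the lower type II cadherins, Cdh10 was the one whose groups did not overlap. Cdh10 (chromosome 15, 18818947 to 19014236, plus strand), best known from brain, stood at 3.35, 3.30, 2.26 and 1.91 FPKM in YAP libraries, against 1.75, 1.90, 1.85 and 1.80 FPKM in EV libraries. Both YAP GFP libraries stand well above the rest, while YAP replicate 4 lies just above the highest EV library. With a log2 difference of 0.43 (95% interval 0.032 to 0.84), Cdh10 had an exact two-sided permutation p of 0.0286, the smallest that 4 against 4 libraries can give, and a limma adjusted p of 0.313. The difference was 0.72 within GFP and 0.15 within mCherry, and the test of that difference gave a limma adjusted p of 0.579. In the authors' deposited table Cdh10 stands at 3.11 FPKM in the YAP arm and 2.08 FPKM in the EV arm, and its q of 0.0566 is the smallest of all 84 genes there.

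Cdh24 and Cdh18, further type II cadherins, had overlapping groups. Cdh24 averaged 2.87 ± 0.65 FPKM in YAP and 2.88 ± 0.18 FPKM in EV libraries, and Cdh18 averaged 1.55 ± 0.395 FPKM in YAP and 1.33 ± 0.307 FPKM in EV libraries (SD, n = 4 each). Cdh6, a type II cadherin of embryonic kidney, stood at 1.05, 0.897, 0.403 and 0.622 FPKM in YAP libraries, against 1.75, 0.698, 1.44 and 1.57 FPKM in EV libraries. EV replicate 2 lies within the YAP range and the other EV libraries above it (log2 -0.58, limma adjusted p = 0.467). Cdh8, another type II cadherin, was listed at 0 in 2 YAP libraries and 1 EV library and reached 0.344 FPKM in YAP replicate 4. Cdh5 (VE-cadherin of endothelium) did not exceed 0.112 FPKM in any library, and Cdh7, Cdh9, Cdh12 and Cdh22 did not exceed 0.144 FPKM. Cdh16 and Cdh20 were listed at 0 in all 8 libraries. Cdh26, with a mean between 0.1 and 1 FPKM, stood at 0.105, 1.08, 0.425 and 0.0800 FPKM in YAP libraries. In EV libraries it lay between 0 and 0.194 FPKM.

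Cdh13 and Cdh17 are atypical cadherins without a catenin-binding tail. Cdh13 (T-cadherin, chromosome 8, 118283733 to 119324921, plus strand), which is held in the membrane by a lipid anchor, stood at 13.6, 14.8, 12.2 and 13.4 FPKM in YAP libraries, against 33.7, 12.6, 26.6 and 15.7 FPKM in EV libraries. EV replicates 1 and 3 stand apart from the other 6 libraries, which lie between 12.2 and 15.7 FPKM. The log2 difference was -0.59 (95% interval -1.30 to 0.12, limma adjusted p = 0.429), -0.33 without EV replicate 1 and -0.88 without EV replicate 2. In the authors' deposited table Cdh13 is listed at 26.9 FPKM in the YAP arm and 32.6 FPKM in the EV arm (q = 0.578), above all 4 YAP libraries. Cdh17, known from intestine and liver, stood at 0.998, 2.20, 0.951 and 1.46 FPKM in YAP libraries, against 0.724, 1.04, 0.612 and 0.320 FPKM in EV libraries. Only EV replicate 2 reaches the YAP range (log2 0.69, 95% interval -0.018 to 1.39, limma adjusted p = 0.356).

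**Figure D3:**
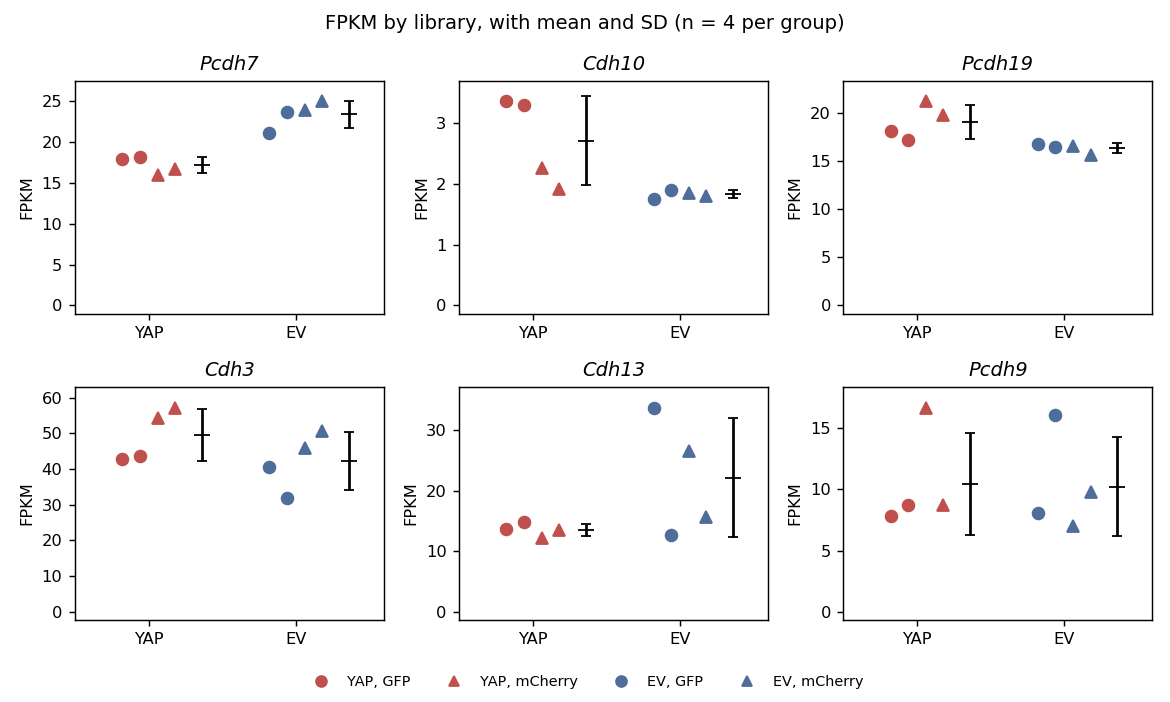
FPKM by library for 6 expressed genes, with YAP left of EV, circles for GFP and triangles for mCherry, and the mean with its SD (n = 4) beside each group. Pcdh7, Cdh10 and Pcdh19 have groups that do not overlap, Cdh3 is higher with mCherry, and single libraries stand out for Cdh13 (33.7 and 26.6 FPKM in EV) and Pcdh9 (16.7 FPKM in YAP, 16.1 FPKM in EV).

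Groups that do not overlap were found for 3 of the 20 expressed genes, 2 higher and 1 lower in YAP libraries, against 9.46% of all tested genes (4.63% higher, 4.83% lower). Besides Cdh10 they were the non-clustered protocadherins Pcdh7 and Pcdh19. Pcdh7 (chromosome 5, 57717967 to 58133230, plus strand), the counterpart of a frog protocadherin of the ectoderm, stood at 17.9, 18.2, 16.0 and 16.7 FPKM in YAP libraries, against 21.1, 23.6, 23.9 and 24.9 FPKM in EV libraries. All YAP libraries lie below all EV libraries, and the gap is wider among mCherry than among GFP libraries. The log2 difference was -0.43 (95% interval -0.63 to -0.24, exact two-sided permutation p = 0.0286), with -0.30 within GFP and -0.57 within mCherry. Pcdh7 had the smallest limma adjusted p of the 20, 0.0574, and the authors' deposited table gives 22.1 FPKM in the YAP arm and 27.7 FPKM in the EV arm (q = 0.0649).

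Pcdh19 (chromosome X, 133582860 to 133688987, minus strand), an X-linked protocadherin of the developing brain, stood at 18.1, 17.2, 21.2 and 19.8 FPKM in YAP libraries, against 16.8, 16.5, 16.5 and 15.7 FPKM in EV libraries. The lowest YAP library lies just above the highest EV library. Pcdh19 differed by 0.21 on the log2 scale (95% interval 0.022 to 0.40, limma adjusted p = 0.299). Pcdh18, of the same delta group of protocadherins, stood at 24.4, 24.1, 29.9 and 26.0 FPKM in YAP libraries, against 20.9, 21.5, 25.03 and 24.0 FPKM in EV libraries. Its groups overlap through EV replicate 3 (log2 0.19, 95% interval 0.025 to 0.35, limma adjusted p = 0.280).

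The remaining expressed delta protocadherins, Pcdh9 and Pcdh10, had single libraries far from the rest in both groups. Pcdh9 stood at 7.81, 8.69, 16.7 and 8.73 FPKM in YAP libraries, against 8.08, 16.1, 7.01 and 9.81 FPKM in EV libraries. YAP replicate 3 and EV replicate 2 are the high libraries, and the log2 difference of 0.035 is -0.24 without the first and 0.32 without the second. Pcdh10 stood at 0.566, 2.16, 0.782 and 0.828 FPKM in YAP libraries, against 0.864, 0.542, 2.98 and 1.11 FPKM in EV libraries. YAP replicate 2 and EV replicate 3 are the high libraries (log2 -0.18; -0.58 without YAP replicate 2 and 0.18 without EV replicate 3). Pcdh17 averaged 0.901 ± 0.0657 FPKM in YAP and 1.00 ± 0.283 FPKM in EV libraries (SD, n = 4 each), and Pcdh8, Pcdh12 and Pcdh15 did not exceed 0.587 FPKM in any library.

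The 3 expressed Fat and Dachsous genes had overlapping groups. Fat1, a giant cadherin at the cell cortex (chromosome 8, 44935447 to 45052257, plus strand), stood at 69.1, 70.5, 83.2 and 78.1 FPKM in YAP libraries, against 74.0, 70.7, 71.0 and 81.0 FPKM in EV libraries. The groups overlap fully, with a log2 difference of 0.018 (95% interval -0.14 to 0.18). Fat4, the receptor of Dchs1 (chromosome 3, 38886940 to 39011985, plus strand), stood at 42.8, 48.3, 49.1 and 43.5 FPKM in YAP libraries, against 44.0, 41.7, 43.3 and 47.4 FPKM in EV libraries. Here too the groups overlap (log2 0.056, 95% interval -0.12 to 0.23, limma adjusted p = 0.784). Dchs1, the ligand (chromosome 7, 105752990 to 105787654, minus strand), stood at 10.3, 11.5, 13.3 and 14.6 FPKM in YAP libraries, against 14.0, 10.15, 15.8 and 15.6 FPKM in EV libraries. EV replicate 2 is the lowest library of all, and YAP replicate 4 also lies above EV replicate 1, so the groups overlap (log2 -0.15, 95% interval -0.41 to 0.11). Without EV replicate 2 the log2 difference of Dchs1 was -0.24 (limma adjusted p = 0.377). Dchs1 was thus present at a lower level than Fat4 in every library. Fat2 and Fat3 did not exceed 0.178 FPKM.

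Over the 8 libraries the levels fall into steps. The ranges of Pcdhgc3 (142 to 185 FPKM) and Cdh11 (96.6 to 146 FPKM) overlap, although Pcdhgc3 was higher in 8 of 8 libraries. The authors' deposited table has the other order, with Cdh11 at 144 FPKM in the YAP arm and 172 FPKM in the EV arm and Pcdhgc3 at 76.2 FPKM in the YAP arm and 84.7 FPKM in the EV arm, below Fat1 at 93.7 FPKM in the YAP arm and 91.5 FPKM in the EV arm. Fat1 lies below Cdh11 and above Cdh3 with no overlap on either side. Cdh3, Fat4 and Cdh2 overlap, and so do Pcdh18, Pcdh7, Cdh13, Pcdh19, Dchs1 and Pcdh9, each with the next. No library put Pcdh18 at the level of Cdh2, or Pcdh9 at that of Pcdhb22, the next gene at 2.70 to 3.94 FPKM.

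Start-site sequences are given for Pcdh7 and Cdh10, chosen after their values were seen from the genes whose groups did not overlap. Pcdh19, whose groups did not overlap either, is not shown. Fat1 is given from the genes whose groups overlapped. This choice is not a neutral sample: Cdh10 and Fat1 were the only expressed members searched that held the letters described below. Each sequence runs from 250 bases before to 50 after a transcript start annotated by RefSeq (GRCm38.p6). That start lies 114 bases inside the GENCODE gene for Pcdh7, 1382 bases inside for Cdh10 and 14761 bases inside for Fat1, so the Cdh10 and Fat1 stretches are windows at an internal start and not upstream of the gene start given above. In GENCODE 0 of 7 Pcdh7 transcripts, 1 of 6 Cdh10 transcripts and 2 of 6 Fat1 transcripts begin at that base. Which start these cells used was not measured. The windows were searched for GGAATG, the core of the site bound by the TEAD partners of YAP, on both strands (CATTCC on the other). Matches are in capitals. Pcdh7 (chr5:57717831-57718130, plus strand) holds no match, Cdh10 (chr15:18820079-18820378, plus strand) holds CATTCC and Fat1 (chr8:44949958-44950257, plus strand) holds GGAATG.
Pcdh7: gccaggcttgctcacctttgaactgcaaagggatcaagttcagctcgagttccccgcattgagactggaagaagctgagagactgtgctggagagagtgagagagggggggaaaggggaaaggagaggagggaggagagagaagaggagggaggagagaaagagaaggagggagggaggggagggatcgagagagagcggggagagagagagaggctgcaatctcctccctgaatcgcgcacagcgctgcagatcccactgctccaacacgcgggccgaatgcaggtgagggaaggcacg
Cdh10: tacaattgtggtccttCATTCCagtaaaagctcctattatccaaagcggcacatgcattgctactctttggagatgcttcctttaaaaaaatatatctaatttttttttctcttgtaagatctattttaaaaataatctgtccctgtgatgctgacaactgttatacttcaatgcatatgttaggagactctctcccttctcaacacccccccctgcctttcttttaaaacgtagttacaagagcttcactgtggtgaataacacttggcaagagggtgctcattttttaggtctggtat
Fat1: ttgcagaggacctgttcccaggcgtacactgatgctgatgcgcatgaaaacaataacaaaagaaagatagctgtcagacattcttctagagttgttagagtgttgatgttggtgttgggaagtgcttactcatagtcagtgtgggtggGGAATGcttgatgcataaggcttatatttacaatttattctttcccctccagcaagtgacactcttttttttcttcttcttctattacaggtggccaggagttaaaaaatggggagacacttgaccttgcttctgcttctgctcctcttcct

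The GC content of these windows was 59.3% for Pcdh7, 37.7% for Cdh10 and 42.7% for Fat1. Of the 11 expressed members outside chromosome 18 with a window in the RefSeq table, Cdh10 and Fat1 held the letters, and 14.7% of all 32851 windows did. Expressed members with no window found by symbol, Cdh11, Cdh3, Cdh13 and Dchs1 among them, were not searched. A match describes the letters and not a bound site: Cdh10 had a log2 difference of 0.43 and Fat1 one of 0.018. CACCTG or CAGGTG, an E-box read by Snail and Zeb repressors, stood in the windows of Fat1 and Pcdh7 and in 20.2% of all windows.

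The clustered protocadherins lie side by side on chromosome 18, and the authors' table gives all 45 beta and gamma members the same locus (36930183 to 37841873). Among the 22 beta-cluster genes, which are single-exon genes read out one by one, Pcdhb22 and Pcdhb17 were expressed. Pcdhb22 stood at 3.19, 3.74, 3.45 and 2.70 FPKM in YAP libraries, against 3.94, 3.47, 3.63 and 3.41 FPKM in EV libraries. Pcdhb17 averaged 1.86 ± 0.46 FPKM in YAP and 1.88 ± 0.223 FPKM in EV libraries (SD, n = 4 each). Both pairs of groups overlap (log2 -0.13 and -0.027, limma adjusted p = 0.679 and 0.969). A further 16 beta genes lay between 0.1 and 1 FPKM, 3 lay lower, and Pcdhb1 was listed at 0 throughout. Summed over the cluster the beta genes reached 10.9 to 13.9 FPKM in YAP and 12.8 to 14.6 FPKM in EV libraries, so the whole cluster amounted to about the level of Dchs1 alone.

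The gamma cluster was represented by Pcdhgc3 alone in the per-library table. Pcdhgc3 (chromosome 18, 37806364 to 37841873, plus strand), a C-type isoform expressed in many tissues, was the highest of the 84 genes in that table and stood at 142, 148, 166 and 167 FPKM in YAP libraries, against 168, 162, 169 and 185 FPKM in EV libraries. YAP replicates 1 and 2 lie below all EV libraries and replicates 3 and 4 among them (log2 -0.14, 95% interval -0.27 to -0.0018, limma adjusted p = 0.340). The other 22 gamma rows were listed at 0 in all 8 libraries. In the authors' deposited table none of these 22 was at 0, and 19 stood at 1 FPKM or more in both arms. Pcdhgc5 was listed there at 136 FPKM in the YAP arm and 114 FPKM in the EV arm, above Pcdhgc3, and the remaining gamma rows ranged from 0.159 to 8.44 FPKM in the YAP arm and from 0.255 to 8.09 FPKM in the EV arm. None of the gamma genes was significant there (lowest q = 0.593).

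**Figure D4:**
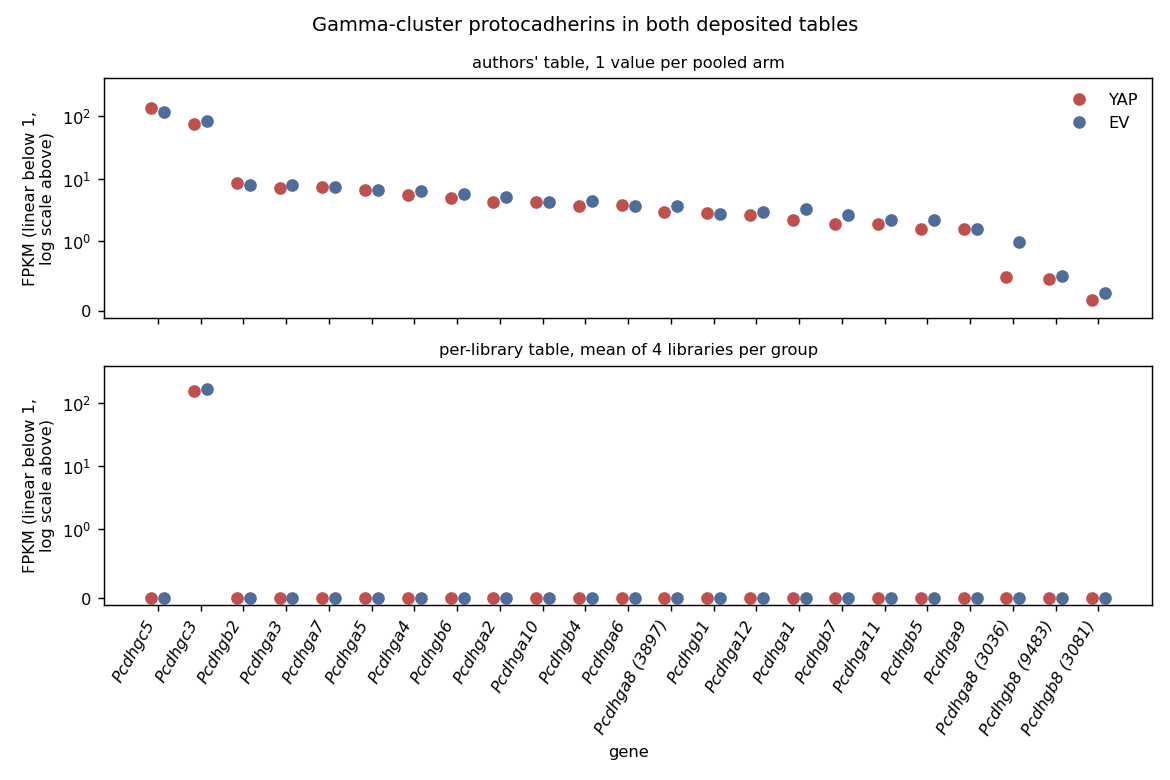
FPKM of the 23 gamma-cluster rows in the authors' table with 1 value per pooled arm (top) and in the per-library table as group means (bottom), with YAP left of EV and an axis that is linear below 1 and logarithmic above. The authors' table spreads the level over all rows, with Pcdhgc5 at 136 and 114 FPKM, while the per-library table lists Pcdhgc3 alone above 0. Symbols on 2 rows carry the last digits of their identifier.

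Gamma genes share their 3' exons, and 16 of the 22 others have 3 annotated exons, 2119 bases in all, that are identical to exons of Pcdhgc3 in GENCODE M21. A further 5 share 2 exons, and 1 identifier was not found there. The deposited tables differed in the split of the level over the gamma rows and in its sum, which was 287 FPKM in the YAP arm and 282 FPKM in the EV arm of the authors' deposited table. In the per-library table the sum averaged 156 FPKM in YAP and 171 FPKM in EV libraries, so the order of the groups differed too. The part of the shared exons in these differences was not tested. The row named Pcdhga8 with identifier ENSMUSG00000023036 is Pcdhgc4 in GENCODE M21. Over the genes with at least 1 FPKM, the authors' mean over both arms was a median of 1.14 times the per-library mean. The 5th and 95th percentiles of this ratio were 0.053 and 2.02. Pcdhgc3 at 0.492 and Cdh13 at 1.67 lay between them.

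Below 1 FPKM the values rest on few fragments. Of the 27 genes between 0.1 and 1 FPKM, 1 had groups that did not overlap, against 4.3% of all genes at that level. It was Dchs2, a relative of Dchs1, at 0.415, 0.514, 0.246 and 0.225 FPKM in YAP libraries, against 0.119, 0.0533, 0.118 and 0.0821 FPKM in EV libraries. All YAP libraries lie above all EV libraries, and with a lower limit of 0.1 FPKM the log2 difference was 0.51 (limma adjusted p = 0.297). Cdh23, a long cadherin of hair cell tip links, had the smallest p of the 27 and stood at 1.04, 0.922, 1.47 and 1.42 FPKM in YAP libraries, against 0.197, 0.478, 0.181 and 1.11 FPKM in EV libraries. EV replicate 4 lies among the YAP libraries (log2 0.87, limma adjusted p = 0.271). Pcdh20, at 0.313, 0.0720, 0.104 and 0.0857 FPKM in YAP libraries and 0.648, 0.536, 0.318 and 0.241 FPKM in EV libraries, had a log2 difference of -0.53 (limma adjusted p = 0.303).

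**Figure D5:**
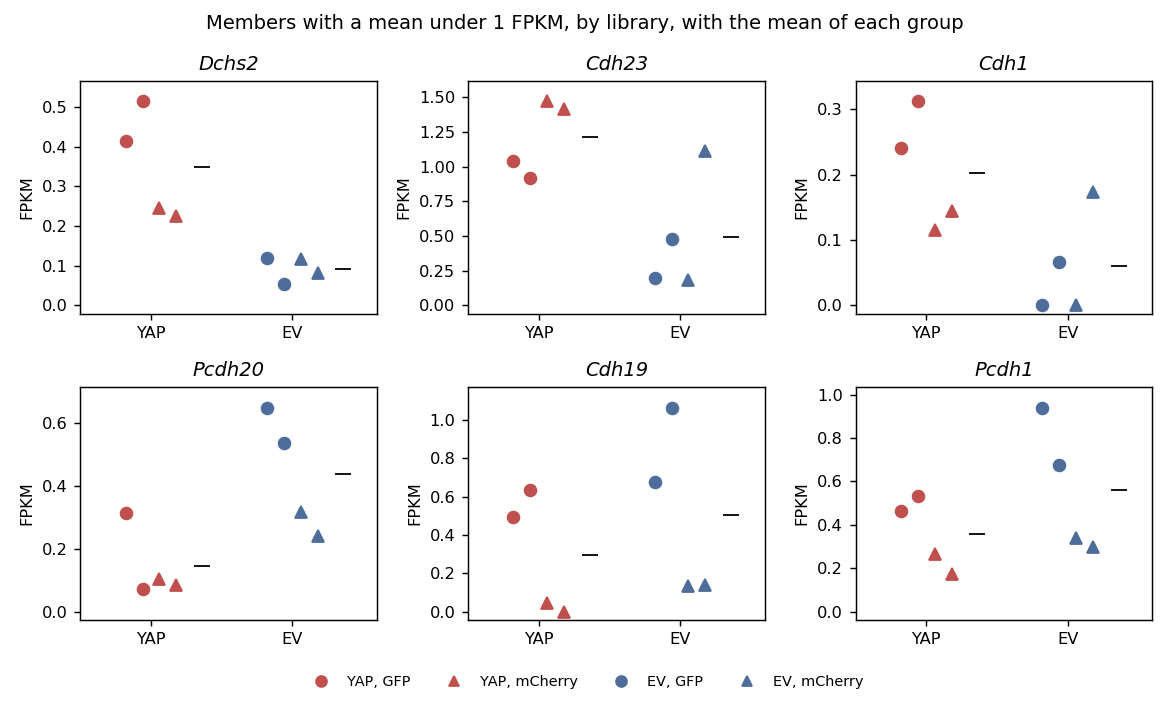
FPKM by library for 6 genes with a mean under 1 FPKM, with YAP left of EV, circles for GFP, triangles for mCherry and a line for each group mean. Dchs2 has groups that do not overlap, at 0.225 FPKM or more in YAP and 0.119 FPKM or less in EV libraries, and Cdh19 and Pcdh1 separate between mCherry and GFP libraries.

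The mCherry and GFP libraries did not overlap for a few genes. GFP is replicates 1 and 2 and mCherry replicates 3 and 4 of both groups, so the reporter and any other difference between these replicates cannot be told apart. Among the 20 expressed genes, Cdh3, Cdh2 and Pcdhb17 were higher in all 4 mCherry than in all 4 GFP libraries, against 5.1% of all tested genes in either direction, and 0 of 20 passed the adjusted test, against 0.0904% (smallest limma adjusted p = 0.280). Among the low genes the count was 2 of 27, against 2.81%, and both were lower with mCherry. Cdh19, a cadherin of Schwann cell precursors named after its values were seen, stood at 0.0440 and 0 FPKM in the YAP mCherry libraries and 0.134 and 0.140 FPKM in the EV mCherry libraries. In GFP libraries it stood at 0.495 and 0.636 FPKM with YAP and at 0.678 and 1.06 FPKM with EV. Pcdh1, the other gene, ranged from 0.176 to 0.339 FPKM with mCherry and from 0.463 to 0.940 FPKM with GFP. The effect of YAP itself did not pass a test of its difference between reporters for any of the 20 genes, with 0 of 20 at an adjusted p under 0.05 against 0.0678% of all tested genes, and 0 of 20 at an unadjusted p under 0.05 against 9.81%.

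The proteins that cadherins work with were examined through lists chosen by function. Of 17 tested catenins and cytoplasmic partners, 0 were higher and 0 lower, against 0.934% and 0.821% of all tested genes. The median log2 difference was 0.078, against -0.0038 over all tested genes. At an unadjusted p under 0.05, 3 of the 17 were above 0, against 7.39% of all tested genes, and 0 below, against 7.12%. Ctnnb1 (beta-catenin), which binds the tails of Cdh2, Cdh3 and Cdh11, stood at 200, 201, 213 and 367 FPKM in YAP libraries, against 213, 229, 227 and 232 FPKM in EV libraries. YAP replicate 4 is high and the other YAP libraries are at or below the lowest EV library. Ctnna1 (alpha-catenin) averaged 90.1 ± 3.43 FPKM in YAP and 85.4 ± 3.03 FPKM in EV libraries (SD, n = 4 each), and Ctnnd1 (the catenin p120) 56.2 FPKM in YAP and 59.1 FPKM in EV libraries. Ajuba, a LIM protein that binds alpha-catenin and the LATS kinases, had the smallest p of the list, at 24.6, 23.2, 18.6 and 24.2 FPKM in YAP libraries and 16.1, 16.6, 16.0 and 14.3 FPKM in EV libraries (log2 0.50, limma adjusted p = 0.0588). The others of these 3 were Ctnnd2 and Ctnnal1. Ctnnd2 averaged 2.44 ± 1.33 FPKM in YAP and 0.769 ± 0.224 FPKM in EV libraries (limma adjusted p = 0.161). Its groups did not overlap, although YAP replicate 3 (0.999 FPKM) lay just above EV replicate 3 (0.961 FPKM). Ctnnal1 averaged 11.1 ± 6.73 FPKM in YAP and 6.18 ± 0.454 FPKM in EV libraries, with overlapping groups (limma adjusted p = 0.344).

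Of 25 nectins, desmosomal, junctional and other adhesion genes, 15 were tested, none of them desmosomal since those averaged under 1 FPKM. Of the 15, 0 rose and 2 fell, against 0.934% and 0.821% of all tested genes. Gja1 (connexin 43, the main gap junction protein of fibroblasts) fell to 169, 164, 144 and 136 FPKM in YAP libraries, against 215, 233, 185 and 170 FPKM in EV libraries (log2 -0.38, limma adjusted p = 0.0317). Mcam, an adhesion molecule of the immunoglobulin family, fell to 15.6 to 21.6 FPKM in YAP libraries, against 27.1 to 29.2 FPKM in EV libraries (log2 -0.57, limma adjusted p = 0.0485). Both genes have YAP libraries below every EV library. The list median was 0.070, with 5 genes above 0 and 3 below at an unadjusted p under 0.05, against 7.39% and 7.12% of all tested genes. Nectin3 averaged 24.2 ± 2.53 FPKM in YAP and 17.4 ± 2.17 FPKM in EV libraries (limma adjusted p = 0.126).

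Of 16 tested genes for Fat and Dachsous partners and planar polarity, 0 passed in either direction (median -0.13). The shares over all tested genes were 0.934% higher and 0.821% lower. At an unadjusted p under 0.05, 1 gene was below 0, against 7.12% of all tested genes. It was Prickle1, a core planar polarity gene, at 6.88, 7.13, 8.76 and 8.29 FPKM in YAP libraries and 9.80, 9.74, 11.3 and 9.62 FPKM in EV libraries. All YAP libraries lie below all EV libraries (log2 -0.36, limma adjusted p = 0.110). Fjx1, a kinase that modifies Fat and Dachsous cadherins, averaged 1.67 ± 0.633 FPKM in YAP and 1.27 ± 0.327 FPKM in EV libraries. Of the 24 Hippo pathway genes 4 rose (Amotl2, Lats2, Amot and Tead4) and 0 fell, against 0.934% and 0.821% of all tested genes (median 0.077). Among 16 tested cadherin proteases 1 rose and 0 fell, against the same shares (median 0.041). The one that rose was Pcsk6, a proprotein convertase, at 12.4, 11.1, 9.09 and 12.4 FPKM in YAP libraries and 5.84, 4.54, 4.89 and 6.51 FPKM in EV libraries (log2 0.98, limma adjusted p = 0.0295). Adam10, which sheds the outer part of Cdh2 and of gamma protocadherins, averaged 41.1 ± 1.47 FPKM in YAP and 38.2 ± 6.13 FPKM in EV libraries (SD, n = 4 each).

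The list of transcription factors of the cadherin switch holds both repressors of Cdh1, such as Snai2, and factors of epithelia, such as Klf4, Grhl2 and Ovol1. Of 10 tested 0 were higher and 0 lower, against 0.934% and 0.821% of all tested genes (list median -0.058). At an unadjusted p under 0.05, 1 was above 0 and 0 below, against 7.39% and 7.12% of all tested genes. Klf4, which is known to activate Cdh1 in epithelial cells, was the 1 gene at an unadjusted p under 0.05, at 73.5, 70.2, 132 and 145 FPKM in YAP libraries and 66.0, 58.8, 52.5 and 103 FPKM in EV libraries. EV replicate 4 lies among the YAP libraries (log2 0.56, limma adjusted p = 0.337). Snai2 averaged 31.4 ± 1.85 FPKM in YAP and 28.4 ± 2.13 FPKM in EV libraries, and Twist2 averaged 16.3 ± 6.3 FPKM in YAP and 20.02 ± 2.01 FPKM in EV libraries (SD, n = 4 each). Of 18 regulators of the protocadherin clusters, among them Ctcf and cohesin subunits, 0 passed in either direction (median -0.060, with 0 above 0 and 3 below at an unadjusted p under 0.05). The smallest p was that of Rest, a repressor of neuronal genes, at 13.4 ± 1.04 FPKM in YAP and 15.4 ± 1.07 FPKM in EV libraries (limma adjusted p = 0.293). Of 6 tested O-mannosylation genes, from a list of Tmtc, Pomt and Pomgnt1 enzymes, 0 passed in either direction, against the same 0.934% and 0.821% (median 0.020). Tmtc3, a mannosyltransferase of cadherins, had the smallest p, at 16.7 ± 1.77 FPKM in YAP and 14.0 ± 0.637 FPKM in EV libraries (limma adjusted p = 0.280). Outside the name rule, 1 of 18 further cadherin superfamily genes reached the level for testing, Clstn1 (calsyntenin 1), at 49.3 ± 0.857 FPKM in YAP and 47.9 ± 2.17 FPKM in EV libraries (SD, n = 4 each).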

How the data were processed

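RNA from 4 YAP and 4 EV libraries of sorted MEFs was analysed from the authors' deposited gene-level FPKM values, which stand in 1 column per library, as the file headers show. The submitters' processing notes name TopHat, Cufflinks and mm10. Annotation release and scaling between libraries are not given in the sources used here. The authors also deposited, for each gene, an FPKM per pooled arm, a p-value and a q-value, which were read and not tested. A sheet repeating its significant genes was not used. All columns matched a sample.

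Identifiers on several rows (49, on 114 rows) were left out, none of them a member. The 13276 genes whose FPKM averaged at least 1 were fitted as log2(FPKM + 0.5) with limma 3.58.1 in R 4.3.3 (variance trend, empirical Bayes, terms for reporter and vector), so fold changes understate low genes. P-values were adjusted by Benjamini-Hochberg over all tested genes at 0.05. Within-reporter differences came from 4 arm means with 1 shared spread. The fit was tested on simulated data. Coordinates are from GENCODE M21 (GRCm38), which held 83 of the 84 identifiers, and promoters from RefSeq (GRCm38.p6), matched by symbol for 26 members outside chromosome 18. Python 3.11.15, pandas 2.3.3 and matplotlib 3.10.9 were used.

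Members and lists were chosen with earlier results of these data known. Every member of at least 1 FPKM is described, lower ones by range or where they stand out, and of each functional list the genes that passed or up to 4 with the smallest p, with the catenins, Nectin3, Fjx1 and Adam10 named after their values were seen. Alternatives changed the pseudocount, the filter, the scaling, the model terms and the libraries.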

Additional observations from a re-analysis of the deposited data

Results flagged for a closer look

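Of the 40 groups of 4 libraries examined for the 20 expressed genes, 2 held a library whose gap to the nearest other took up more of the group's range than Dixon's 95% critical value, and chance gives about 1 such group in 20. Pcdh9 in YAP replicate 3 stood at 16.7 FPKM, against 7.81 to 8.73 FPKM in the other YAP libraries. Pcdh10 in YAP replicate 2 stood at 2.16 FPKM, against 0.566 to 0.828 FPKM in the other YAP libraries. No member had a difference between reporters in the YAP effect past the threshold.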

How the results depend on the processing

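In all 19 alternatives 0 members were called in either direction, and the smallest limma adjusted p of any member was 0.0505 (Pcdh7 without the reporter term). Of the 20 expressed genes 15 kept their sign throughout. With quantile normalization Fat1 was at -0.017, Cdh24 at 0.024 and Pcdhb17 at 0.015 (log2); with GFP libraries alone Fat1 was at -0.052, Pcdh9 at -0.45 and Pcdh10 at 0.50, and with mCherry libraries alone Cdh24 was at 0.22 and Pcdhb17 at 0.069. Leaving out each library in turn gave -0.034 to 0.045 for Fat1, -0.11 to 0.093 for Cdh24, -0.12 to 0.043 for Pcdhb17, -0.24 to 0.32 for Pcdh9 and -0.58 to 0.18 for Pcdh10. Over all tested genes, 124 were higher and 109 lower; the counts were 75 and 71 with no lower limit on FPKM, 80 and 70 when the reporter term was dropped, 78 and 88 without the variance trend, 7 and 13 with GFP libraries alone, 9 and 13 with mCherry libraries alone, and 24 to 55 and 17 to 55 without each library in turn; beyond the fewer libraries, the cause was not tested. A replicate block, pairing libraries by number, gave 6 and 9. Same-numbered libraries had correlations of -0.015 to 0.090 in their deviations from group means, and not every library correlated best with its own number. Same-numbered libraries share the reporter, and these correlations cannot show whether they also share a culture or a batch. A mean of at least 0.5 FPKM would count 29 members as expressed and at least 1 FPKM in every library 17. The absolute depth is unknown and limits what can be said of genes below 1 FPKM.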
